A study of Mus musculus with 6 samples.

Results

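The p53 pathway genes examined here are Trp53, which encodes the transcription factor p53, its inhibitors Mdm2 and Mdm4, the stress genes Gadd45a, Gadd45b and Gadd45g, the p53 targets Trp53inp1 and Zmat3, and the sestrin genes Sesn1 and Sesn2. They were taken by symbol from the deposited table of counts, which lists 21604 genes, and all 10 were found. RNA was sequenced from 6 libraries of RAW 264.7, a wild type mouse macrophage line derived from a tumour induced by a leukaemia virus, whose cell type the labels give as bone marrow macrophage. In 3 libraries the cells had received lipopolysaccharide (LPS, a bacterial activator of macrophages) at 100 ng/mL for 24 h, and in the other 3 the same LPS dose for 24 h with 2 mg/mL PE-CUR, a curcumin-loaded Pickering emulsion by the series title. No group without LPS, with empty emulsion or with free curcumin was analysed here, so each value below is LPS plus PE-CUR (also written "with PE-CUR") set against LPS alone. The labels do not say whether replicates are separate cultures, and the p-values therefore cover only the spread between these libraries, which may be technical. In such bulk RNA, fewer cells of a kind and less RNA per cell cannot be told apart.

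p53 is held at a low level by Mdm2, a ubiquitin ligase that marks it for destruction, and by Mdm4, a relative that mainly blocks its activity. Damage or stress frees p53, which then switches on genes of cell cycle arrest, repair and death, and also Mdm2 itself, closing a feedback loop. Gadd45 proteins are small stress sensors that bind stress kinases and cell cycle proteins, and sestrins restrain growth signalling through mTORC1. Several of these genes also answer to factors other than p53: Gadd45b to NF-kB, and Gadd45a and Sesn2 to the stress factor ATF4. Most control of p53 acts on the protein, which RNA counts do not show.

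Of the 10 genes, Trp53, Mdm4, Zmat3 and Sesn1 were higher in LPS plus PE-CUR, by 1.35 to 1.53-fold, and Gadd45a, Trp53inp1 and Sesn2 were lower, by 7.33-fold, 2.78-fold and 1.33-fold. Mdm2, Gadd45b and Gadd45g were not called. Calls are at a Benjamini-Hochberg adjusted p under 0.05 over all genes tested (edgeR quasi-likelihood test, 3 against 3 libraries). All 10 passed the filter on low counts, Gadd45g with 8 to 32 counts per library. In this comparison 63.4% of the 13014 genes tested were called, 30.8% as higher and 32.7% as lower, so 7 calls in 10 is close to the share among all genes. The groups did not overlap for the same 7 genes, 4 higher and 3 lower, as for 69.0% of tested genes, 33.3% higher and 35.7% lower. The sizes of the changes varied widely: 11.5% of tested genes were called lower by at least 2-fold, as Gadd45a and Trp53inp1 were, and 252 tested genes had a lower log2 fold change than Gadd45a. None of the 10 was called higher by 2-fold, as 6.37% of tested genes were.

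Libraries held 28530750 to 35276533 counts, so 1 CPM, the unit of level used here (counts scaled to library size), stands for about 28.5 to 35.3 counts. Macrophage markers were present, with 12 of 12 above 1 CPM on average and a summed level of 12900 to 13200 CPM in LPS and 10400 to 11300 CPM in LPS plus PE-CUR. Of these markers 2 rose, 5 fell and 5 did not pass, and Lyz2 (6417 and 4834 CPM) made up much of the sum. Adgre1 fell by 3.17-fold and Fcgr3 by 8.42-fold. The 2 that rose were Csf1r, from 865 to 1201 CPM, and Cd14, from 1178 to 1559 CPM. These genes were named after their values were seen. The part of the marker changes in the results below was not tested. Of 13 liver markers 9 averaged over 1 CPM. Albumin (Alb) had 1600, 1081 and 1711 counts in LPS replicates 1 to 3, 1 and 0 in LPS plus PE-CUR replicates 1 and 2, and 1648 in replicate 3. The summed liver level was 58 to 75 CPM in LPS and 0.0568 to 92.8 CPM in LPS plus PE-CUR, and markers of lymphocytes, fibroblasts, epithelium, erythroid cells and neutrophils summed to at most 14.8 CPM per list. LPS plus PE-CUR replicate 2 gave that highest sum, with 180 counts of the collagen gene Col1a1 against at most 15 elsewhere. Genes with a count numbered 18210 to 18451 in LPS and 16701 to 17002 with PE-CUR. All 7 calls among the 10 genes were made again, in the same direction, when any 1 library was left out.

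The 3 Gadd45 genes encode related proteins but did not move together. Their upstream sequences are shown as a description, and a link between sequence and change was not tested. Each line gives the 250 bases before the RefSeq transcription start (GRCm38.p6, the assembly of mm10), 5′ to 3′ on the gene's strand, with capitals marking CCAAT boxes (CCAAT) and octamers (ATTTGCAT) found on either strand. Both are known elements of the Gadd45a promoter.
Gadd45a, chr6:67037408-67037657, minus strand: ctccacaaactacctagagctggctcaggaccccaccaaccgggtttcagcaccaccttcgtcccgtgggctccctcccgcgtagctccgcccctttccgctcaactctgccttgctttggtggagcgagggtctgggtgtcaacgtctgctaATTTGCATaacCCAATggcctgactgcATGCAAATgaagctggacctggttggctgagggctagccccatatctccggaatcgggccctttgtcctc
Gadd45b, chr10:80929841-80930090, plus strand: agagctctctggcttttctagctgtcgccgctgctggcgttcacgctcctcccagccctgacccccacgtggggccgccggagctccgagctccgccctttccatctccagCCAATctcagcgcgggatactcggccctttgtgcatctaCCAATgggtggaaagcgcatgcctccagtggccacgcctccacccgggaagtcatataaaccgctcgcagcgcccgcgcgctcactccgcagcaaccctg
Gadd45g, chr13:51846425-51846674, plus strand: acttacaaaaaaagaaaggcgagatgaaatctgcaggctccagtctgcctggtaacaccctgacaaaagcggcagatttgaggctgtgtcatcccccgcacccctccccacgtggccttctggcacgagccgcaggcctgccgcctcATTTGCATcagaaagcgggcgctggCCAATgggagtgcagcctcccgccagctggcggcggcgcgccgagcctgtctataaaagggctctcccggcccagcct
Gadd45a has 2 octamers around 1 CCAAT box, Gadd45g has 1 octamer and 1 CCAAT box, and Gadd45b has 2 CCAAT boxes and no octamer in this window. The octamer occurs in 1.6% and the CCAAT box in 33.8% of 32851 such windows of all genes. The marked matches do not overlap each other, but the Gadd45g octamer overlaps a match to the ATF4-type element TGATGNAA, held by 3.45% of windows, and a match describes letters, not a bound factor.

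**Figure D1:**
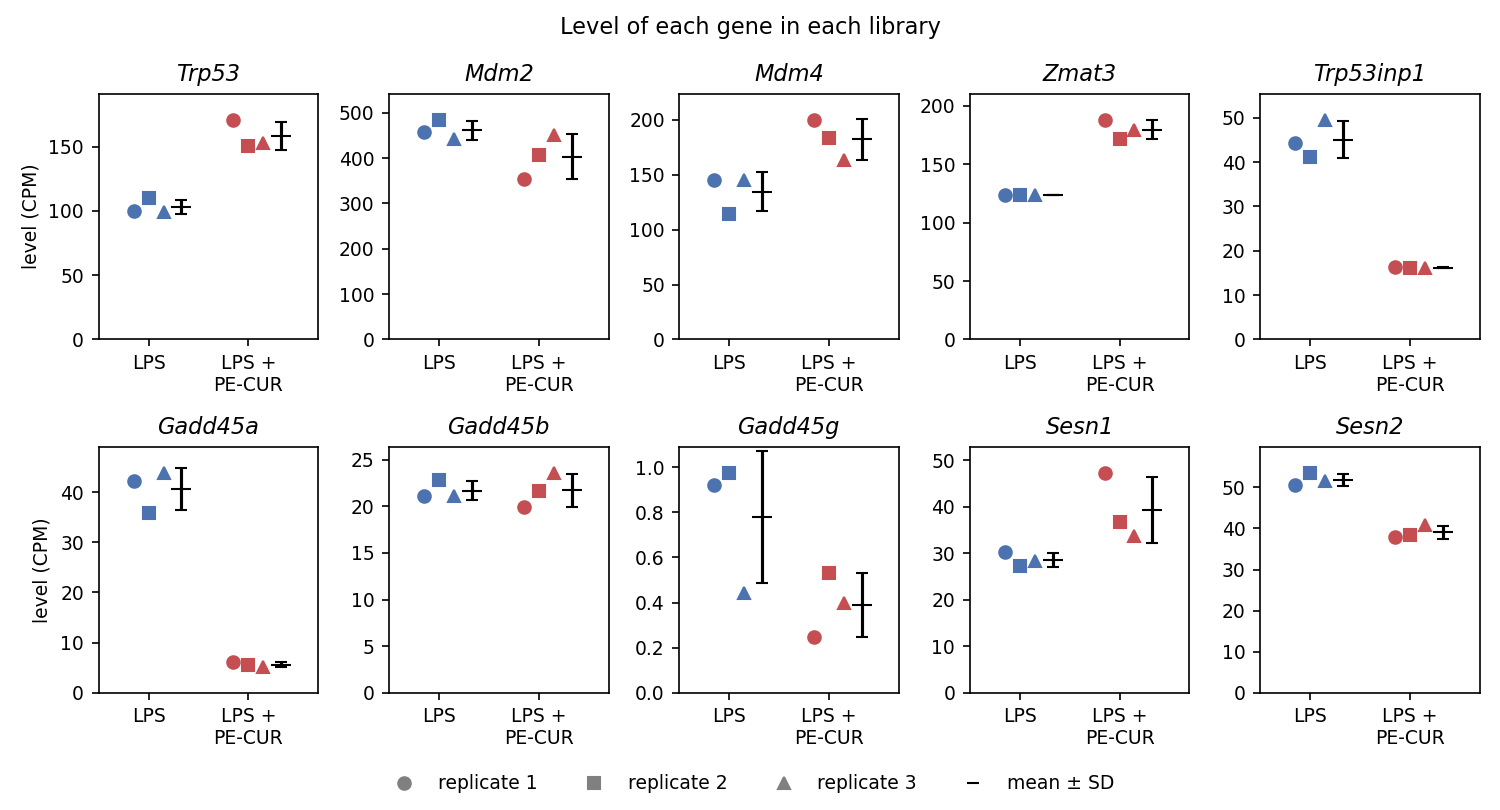
Level of each of the 10 genes in CPM (vertical axes, starting at 0) in the 3 LPS libraries (blue) and the 3 LPS plus PE-CUR libraries (red), with mean ± SD in black. Gadd45a and Trp53inp1 sit far lower in all 3 LPS plus PE-CUR libraries, while Mdm2, Gadd45b and Gadd45g overlap between groups.

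Trp53 (chromosome 11, 69580348 to 69591873, mm10, protein coding) stood at 100.1, 109.7 and 99.3 CPM in LPS replicates 1 to 3 and at 171, 151 and 153 CPM in LPS plus PE-CUR replicates 1 to 3. All 3 libraries with PE-CUR were above all 3 with LPS alone. The mean rose from 103 ± 5.76 to 158 ± 11.1 CPM (SD over 3 libraries each; log2 fold change of 0.62 with SE 0.07, adjusted p from edgeR = 1.70e-05). In the annotation no exon of another gene overlaps Trp53, and its pseudogene Trp53-ps was not analysed here. Wrap53, the neighbouring gene, named here after its values were seen, rose from 6.16 ± 0.464 to 10.7 ± 0.724 CPM (log2 fold change of 0.80, adjusted p from edgeR = 1.75e-04).

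Mdm2 (chromosome 10, 117688875 to 117710758), both the main inhibitor of p53 and one of its targets, had 457, 484 and 443 CPM in LPS alone and 353, 407 and 450.5 CPM with PE-CUR. LPS plus PE-CUR replicate 3 reached into the range of the LPS libraries, so the groups overlapped. Means were 461 ± 21.1 and 403 ± 48.6 CPM, and the difference did not pass (log2 fold change -0.19, 95% interval -0.38 to -0.01, edgeR adjusted p = 0.0647). The interval is not adjusted for the number of genes, and it leaves room for a fall of up to 0.38 on the log2 scale. Without LPS plus PE-CUR replicate 3, Mdm2 passed as lower (log2 fold change of -0.26, adjusted p from edgeR = 0.0116). The value was smaller without LPS plus PE-CUR replicate 1 (-0.08, edgeR adjusted p = 0.348) or LPS replicate 2 (-0.12, edgeR adjusted p = 0.323). It also passed under other scalings and units given in the closing section.

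Mdm4 (chromosome 1, 132986105 to 133030587), the inhibitor that lacks strong ligase activity of its own, had 145, 114 and 145 CPM in LPS alone and 199.9, 184 and 163 CPM with PE-CUR. The groups did not overlap, although libraries within each group were spread widely. The mean rose from 135 ± 17.6 to 182 ± 18.5 CPM (log2 fold change of 0.44 with SE 0.11, adjusted p from edgeR = 0.00754). Gene counts do not separate the spliced forms of Mdm2 and Mdm4, some of which encode shortened proteins.

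Ratios within a library do not depend on how libraries are scaled to each other, and FPKM, which divides by gene length, lets genes be compared. Mdm2 FPKM was 3.42 times that of Mdm4 in LPS and 2.19 times in LPS plus PE-CUR (geometric means). On the log2 scale the ratio was 1.77 ± 0.26 in LPS and 1.13 ± 0.32 in LPS plus PE-CUR (SD, n = 3), with no overlap. Mdm2 to Trp53 went from 0.47 ± 0.02 to -0.35 ± 0.27, or 1.38 and 0.786 in linear terms. Which of the genes is higher depends on the gene lengths used. With the exon bases of GENCODE M21 (5083 for Mdm2, 4045 for Trp53) in place of the lengths implied by FPKM (7415 and 2291), the log2 ratio was 1.83 in LPS and 1.02 with PE-CUR, above 0 in all 6 libraries. The log2 ratio of Mdm2 to Mdm4 was then 3.33 in LPS and 2.69 with PE-CUR. The difference between the groups does not change with length. Each difference had an exact two-sided permutation p = 0.1, the smallest that 3 against 3 libraries can give, and 0.1 again when adjusted over the 4 ratios computed here.

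**Figure D2:**
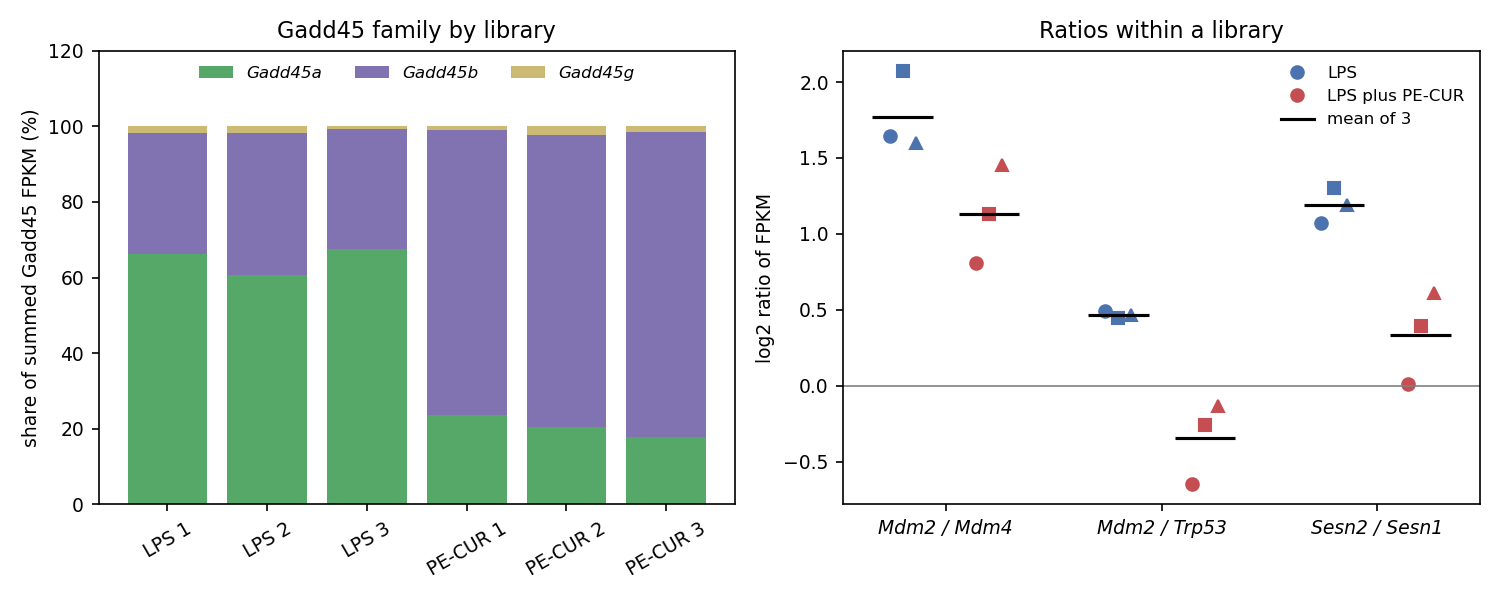
Left, the share of each Gadd45 gene in the summed Gadd45 FPKM (percent) of each library; PE-CUR stands for LPS plus PE-CUR. Right, log2 ratios of FPKM within each library (points: circle, square and triangle for replicates 1 to 3; lines: mean of 3). Gadd45b takes 31.5% to 37.4% in LPS and 75.4% to 80.7% in LPS plus PE-CUR, and the 3 ratios are lower in every library with PE-CUR.

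Zmat3 (chromosome 3, 32334792 to 32365665), a p53 target that encodes a zinc finger protein binding RNA, had 123.6, 123.9 and 123.5 CPM in LPS alone and 188, 172 and 179 CPM with PE-CUR. The LPS libraries lay within 1 CPM of each other. The mean rose from 124 ± 0.231 to 179.8 ± 8.07 CPM (log2 fold change of 0.54 with SE 0.06, adjusted p from edgeR = 1.01e-05). Trp53inp1 (chromosome 4, 11156441 to 11174379) went the opposite way. It encodes a p53-induced protein that also binds LC3-type proteins of autophagy. Its levels were 44.3, 41.2 and 49.5 CPM in LPS alone and 16.4, 16.2 and 16.0 CPM with PE-CUR, a wide gap with closely matched libraries after treatment. The mean fell from 45.0 ± 4.20 to 16.2 ± 0.184 CPM (log2 fold change of -1.47 with SE 0.08, adjusted p from edgeR = 1.93e-07).

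Gadd45a (chromosome 6, 67035096 to 67037407), the family member best known as a p53 target, had 42.2, 35.9 and 43.8 CPM in LPS alone and 6.03, 5.53 and 5.02 CPM with PE-CUR. These levels rest on 1178 to 1585 counts in LPS and 139 to 196 counts with PE-CUR. Its mean fell from 40.6 ± 4.20 to 5.53 ± 0.506 CPM, a 7.33-fold difference (log2 fold change of -2.87 with SE 0.11, adjusted p from edgeR = 2.53e-08). The noncoding gene E230016M11Rik lies on the opposite strand and shares 337 exonic bases with Gadd45a. Strand use in counting is not given in the sources used here. That gene had 0.530 CPM in LPS alone and 0.259 CPM with PE-CUR, far below Gadd45a, and was not called (edgeR adjusted p = 0.0513). Without LPS plus PE-CUR replicate 3, whose albumin count lay in the range of the LPS libraries, the log2 fold change was -2.79.

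Gadd45b (chromosome 10, 80930091 to 80932204), the member known as a target of NF-kB, had 21.1, 22.9 and 21.1 CPM in LPS alone and 20.0, 21.6 and 23.6 CPM with PE-CUR. The groups overlapped, with means of 21.7 ± 1.02 and 21.7 ± 1.81 CPM. It was not called (log2 fold change of 0.00, adjusted p from edgeR = 0.987), and the 95% interval of -0.19 to 0.19 bounds the difference on the log2 scale. Gadd45g (chromosome 13, 51846675 to 51848475) was near the floor, with 30, 32 and 16 counts in LPS and 8, 18 and 11 in LPS plus PE-CUR. LPS replicate 3 lay inside the range of the PE-CUR libraries. Levels were 0.779 ± 0.293 and 0.391 ± 0.142 CPM, and the difference did not pass (log2 fold change -0.98, 95% interval -1.94 to -0.01, edgeR adjusted p = 0.0718). Without LPS replicate 3 it passed as lower (log2 fold change of -1.23, adjusted p from edgeR = 0.0397), and without any other single library it did not, with values of -1.23 to -0.70.

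The makeup of the family differed between the groups. Gadd45a made up 64.9% ± 3.70 of the summed Gadd45 FPKM in LPS and 20.6% ± 2.90 in LPS plus PE-CUR (SD, n = 3). Gadd45b made up 32.0%, 37.4% and 31.5% in LPS and 75.4%, 77.3% and 80.7% in LPS plus PE-CUR. Its mean share was 33.7% ± 3.26 and 77.8% ± 2.67, a difference of 44.1 percentage points (exact two-sided permutation p = 0.1). Since Gadd45b FPKM itself was 17.5 ± 0.754 and 16.8 ± 1.13, the shift in share came with the lower Gadd45a level. Gadd45g made up 0.774% to 2.22% in the 6 libraries.

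Of the sestrins, Sesn1 (chromosome 10, 41810574 to 41908436), a p53 and FoxO target, had 30.2, 27.2 and 28.3 CPM in LPS alone and 47.2, 36.6 and 33.7 CPM with PE-CUR. The groups did not overlap, with LPS plus PE-CUR replicate 1 well above the others. The mean rose from 28.6 ± 1.51 to 39.2 ± 7.11 CPM (log2 fold change of 0.46 with SE 0.12, adjusted p from edgeR = 0.00728). Sesn2 (chromosome 4, 132492804 to 132510456), a leucine sensor that also responds to ATF4, had 50.6, 53.5 and 51.5 CPM in LPS alone and 37.9, 38.3 and 40.9 CPM with PE-CUR. It fell from 51.9 ± 1.497 to 39.0 ± 1.64 CPM (log2 fold change of -0.41 with SE 0.07, adjusted p from edgeR = 2.45e-04). Sesn2 FPKM was 2.28 times that of Sesn1 in LPS and 1.26 times in LPS plus PE-CUR, with log2 ratios of 1.19 ± 0.12 and 0.34 ± 0.30 (exact two-sided permutation p = 0.1). Sesn3, the remaining paralog, averaged 0.120 and 0.0767 CPM and was not tested.

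**Figure D3:**
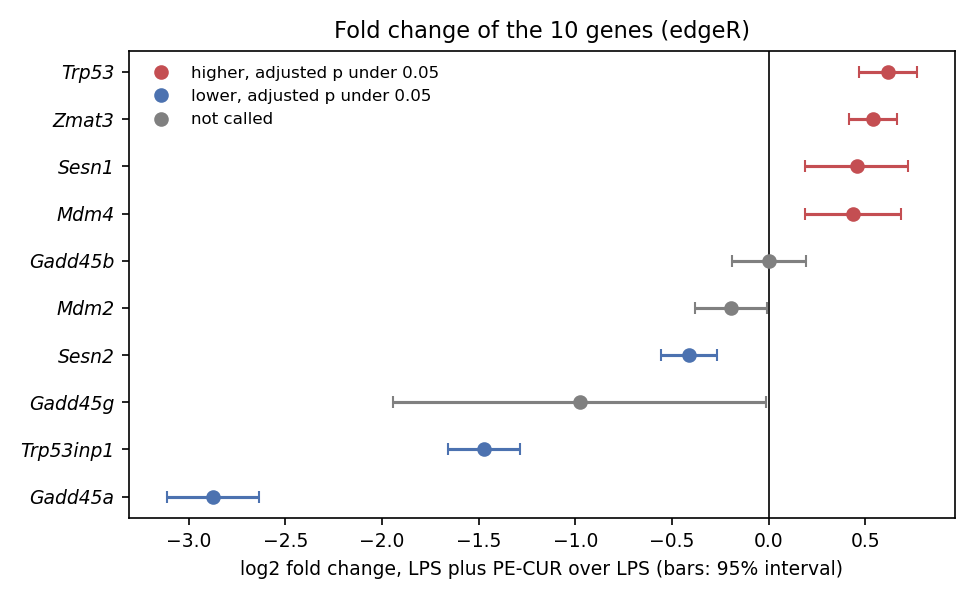
Log2 fold change of LPS plus PE-CUR over LPS for each gene (points) with its 95% interval (bars), from edgeR. Gadd45a at -2.87 and Trp53inp1 at -1.47 lie far from the other calls, which range from -0.41 to 0.62.

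Ordered by FPKM in LPS, Mdm2 (63.4 ± 2.59) came first, then Trp53 (45.8 ± 2.37) and Gadd45a (33.9 ± 3.65). Sesn2, Mdm4 and Gadd45b followed at 19.9 ± 0.533, 18.7 ± 2.51 and 17.5 ± 0.754, and Mdm4 did not differ from either neighbour beyond its spread. Zmat3 was at 15.5 ± 0.0674. Sesn1 (8.72 ± 0.467) and Trp53inp1 (8.46 ± 0.837) also lay within each other's spread, and Gadd45g was last at 0.734 ± 0.273. In LPS plus PE-CUR, Trp53 (67.8 ± 6.43) stood above Mdm2 (53.3 ± 5.49), followed by Mdm4 (24.3 ± 2.95) and Zmat3 (21.7 ± 1.48), which overlapped in spread. Gadd45b (16.8 ± 1.13), Sesn2 (14.4 ± 0.525) and Sesn1 (11.5 ± 2.38) came next, with Sesn1 reaching the Sesn2 range in replicate 1, ahead of Gadd45a (4.44 ± 0.497) and Trp53inp1 (2.93 ± 0.0988). Gadd45g was again last at 0.353 ± 0.122. These orders depend on the gene lengths behind the FPKM. With exon bases as length, Mdm2 stands above Trp53 with PE-CUR. Mdm4, with 14798 exon bases against an implied length of 7354, falls below Zmat3 in both groups and below Gadd45b in LPS. With PE-CUR its mean also falls below that of Gadd45b, but the libraries overlap, and in replicate 1 Mdm4 stands above Gadd45b. The log2 ratio of Sesn2 to Sesn1 is then below 0 in LPS plus PE-CUR replicate 1 (-0.12).

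Within LPS plus PE-CUR, replicate 1 had the highest Trp53, Mdm4, Zmat3, Sesn1, Gadd45a and Trp53inp1 and the lowest Mdm2, Sesn2, Gadd45b and Gadd45g levels of its group. It was thus highest for all 4 genes called higher and for 2 of the 3 called lower. Without it, each of the 4 was still called higher.

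Other targets of p53 were divided. Of 48 listed targets outside the 10 genes 44 were tested, and 16 rose, 13 fell and 15 did not pass. That is 65.9% called against 63.4% of all genes, with a median log2 fold change of -0.06 against -0.03. Psrc1, Gtse1 and Ckap2, known for roles at the mitotic spindle, rose from 18.1 to 65.8, from 16.4 to 50.8 and from 14.7 to 43.5 CPM. Pml, the organiser of nuclear bodies, rose from 40.6 to 71.6 CPM. Zfp365 fell from 7.48 to 1.92 CPM and Cd82, a tetraspanin of the cell surface, from 75.3 to 46.4 CPM. Some of the best-known targets, named here after their values were seen, were also divided. Cdkn1a, the p21 inhibitor of cell cycle kinases, rose from 433 ± 39.9 to 521 ± 35.6 CPM (log2 fold change of 0.27, adjusted p from edgeR = 0.00976), and the death gene Bax from 158 ± 2.49 to 202 ± 7.31 CPM (0.36, adjusted p from edgeR = 1.65e-04). The death gene Pmaip1 fell from 53.9 ± 4.66 to 42.5 ± 3.22 CPM (log2 fold change of -0.34, adjusted p from edgeR = 0.00402). Bbc3, another death gene, was at 34.3 ± 0.972 and 36.3 ± 0.454 CPM, a difference that missed the threshold (edgeR adjusted p = 0.308). Gdf15, a secreted stress factor, fell from 2.18 ± 0.908 to 0.298 ± 0.0452 CPM, with a log2 fold change of -2.86 (adjusted p from edgeR = 7.75e-05).

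**Figure D4:**
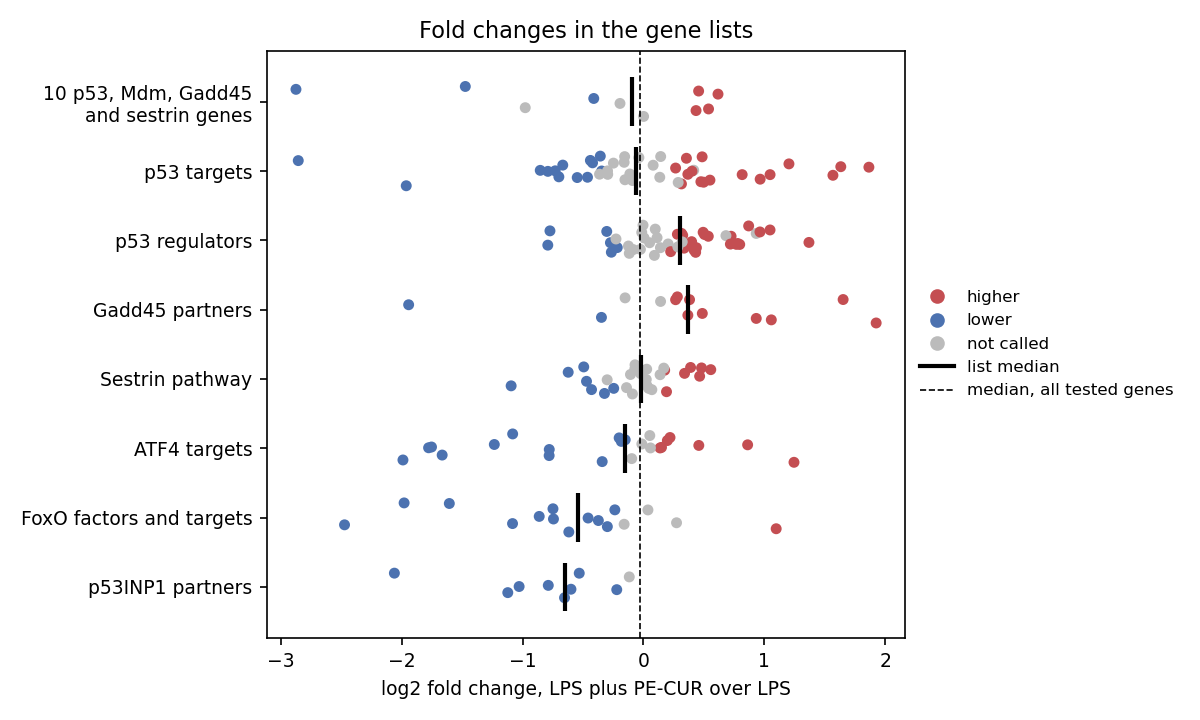
Log2 fold change of LPS plus PE-CUR over LPS for each tested gene of the 10 and of 7 lists (points, spread vertically for visibility; red higher, blue lower, grey not called). Black bars are list medians and the dashed line is the median of all tested genes, -0.03. p53 targets lie on both sides. The list of partners of p53INP1, the protein made by Trp53inp1, also holds its paralog gene Trp53inp2. Of its 9 genes 8 were called lower, as were 32.7% of all tested genes.

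Among proteins that act on p53, 46 of 50 listed genes were tested, of which 22 rose, 6 fell and 18 did not pass. That is 60.9% called against 63.4% of all genes, with a median log2 fold change of 0.30. Ppm1g, a phosphatase, rose from 85.2 to 166 CPM, Ybx1, a nucleic acid binding protein, from 649 to 1187 CPM, and Rfwd3, a ubiquitin ligase of the damage response, from 65.3 to 111 CPM. Usp10, which removes ubiquitin from p53, rose from 50.3 to 86.4 CPM. Ppp1r13b and Trp53bp2, which encode the ASPP proteins that steer p53 towards death genes, fell from 51.3 to 29.7 and from 33.1 to 19.3 CPM. The damage kinase gene Atm, named after its values were seen, averaged 79.5 ± 23.3 and 152 ± 63.3 CPM, a difference that missed the threshold (edgeR adjusted p = 0.113). Chek1, the kinase of the replication checkpoint and also chosen after its values were seen, rose from 12.4 ± 1.58 to 32.1 ± 9.99 CPM (log2 fold change of 1.37, adjusted p from edgeR = 0.00502).

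Of 13 tested genes whose proteins bind or act with Gadd45 proteins, 9 rose, 2 fell and 2 did not pass. That is 84.6% called against 63.4% of all genes, with a median of 0.37. Of the 13 genes, Cdkn1a and Ercc5 are also on the list of p53 targets. The mitotic pair Cdk1 and Ccnb1 rose from 37.6 to 118 and from 36.4 to 138 CPM, the replication clamp gene Pcna from 205 to 391 CPM, and Gadd45gip1, whose protein binds Gadd45 proteins, from 8.94 to 18.6 CPM. Mapk14, the p38 kinase, fell from 134 to 105 CPM and Map2k6, a kinase that activates p38, from 0.831 to 0.214 CPM. The level of Map2k6 is near the floor, and its log2 fold change of -1.94 has an SE of 0.39. Map2k3, another activator of p38 and named after its values were seen, was not called (97.4 and 87.7 CPM, edgeR adjusted p = 0.0818).

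Of 29 tested genes of the sestrin pathway to AMPK and mTORC1, 7 rose, 7 fell and 15 did not pass. That is 48.3% called against 63.4% of all genes, with a median of -0.02. Mtor rose from 62.2 to 91.6 CPM, Keap1, which holds NRF2 in check, from 68.1 to 94.0 CPM, and Mios, of the GATOR2 complex to which sestrins bind, from 16.0 to 20.3 CPM. Kptn, of the complex that anchors GATOR1, rose from 5.43 to 7.58 CPM. Castor2, of the family of arginine sensors, fell from 69.4 to 32.5 CPM and Rragc, a Rag GTPase, from 205 to 145 CPM. Rraga, another Rag GTPase, and Prkab2, a subunit of AMPK, named after their values were seen, fell as well, Rraga from 119 to 88.1 CPM and Prkab2 from 23.3 to 15.2 CPM. They do not stand for all AMPK and Rag genes. Prkaa1, Prkab1, Prkag1 and Prkag2, which encode other AMPK subunits, and the Rag gene Rragb were not called. Prkaa2 and Rragd were not tested. Depdc5, Itfg2 and Seh1l of this list rose. These genes too were named after their values were seen. A list of 9 tested genes covers proteins that act with, or resemble, the protein made by Trp53inp1, most of them in autophagy. Of these 0 rose, 8 fell and 1 did not pass, with a median of -0.65. That is 88.9% called, against 63.4% of all genes called and 32.7% called lower. The gene that did not pass was Hipk2, a kinase gene that is also on the list of p53 regulators (240 and 221 CPM, edgeR adjusted p = 0.206). Trp53inp2, the paralog of Trp53inp1, fell from 52.2 to 25.6 CPM and Map1lc3a from 10.1 to 2.41 CPM. The LC3 relative Gabarapl1 fell from 152 to 69.9 CPM and Vmp1, needed to form autophagosomes, from 278 to 161 CPM.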

How the data were processed

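The authors deposited whole-number counts per gene symbol and FPKM values for the same 6 libraries. The tools named in the submitters' processing notes are HTSeq, DESeq2, SAMtools and fastp, and the build is mm10. Aligner, annotation, versions and strand setting: not given in the sources used here. The deposited FPKM values equal count over gene length and library total in 100% of 105337 values above 0 (relative tolerance 1e-04), so they are no second measurement. Columns were matched to samples by title.

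Counts were fitted in R 4.3.3 with edgeR 4.0.16 (filterByExpr, TMM, robust quasi-likelihood test, group as the only term). The fit was tried on simulated data with far fewer changed genes than were called here. That trial does not cover a comparison in which most genes are called. P-values were adjusted over all 13014 tested genes by the Benjamini-Hochberg method. CPM are scaled by TMM factors, except marker sums. SE is the log2 fold change over the root of F. Ratios of FPKM were compared by exact permutation tests. Alternatives used other scalings, filters, DESeq2 1.42.0, limma 3.58.1 (voom, log2 FPKM with a pseudocount of 1 or 0.1), a replicate block, libraries left out and, chosen after seeing the data, GENCODE exon bases as gene length.

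The 10 genes and the lists were chosen with earlier results of these data known. The text names all 10, of each list the passing genes with the smallest p (up to 4 in the direction most took, up to 2 in the opposite one, with higher taken first for the sestrin list, which was tied), and the 3 genes most correlated with Trp53. Coordinates, counted from 1, are those of RefSeq on GRCm38.p6, and overlaps those of GENCODE M21. RefSeq windows were held for 8 of the 10 genes. Beside the CCAAT box and octamer, 8 motifs were searched on both strands: the p53 half-site and kB motif, by name, the CRE (TGACGTCA), the ATF4-type element (TGATGNAA), the AP-1 site (TGANTCA), the antioxidant element (TGACNNNGC), the E-box (CACGTG) and the FoxO site (TGTTTAC).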

Additional observations from a re-analysis of the deposited data

How the results depend on the processing

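Trp53, Zmat3, Gadd45a, Trp53inp1 and Sesn2 kept direction and call under all 17 alternatives, with log2 fold changes of 0.55 to 0.71, 0.46 to 0.61, -2.93 to -2.68, -1.53 to -1.26 and -0.47 to -0.35. Mdm4 and Sesn1 missed the threshold in 1, limma on log2(FPKM + 1) without a filter (limma adjusted p = 0.0612 and 0.0858), where 2 of the 10 genes were higher in place of 4. With limma on filtered log2(FPKM + 1) and log2(FPKM + 0.1), 5 and 5 were lower in place of 3, Mdm2 and Gadd45g being the additions. Mdm2 also passed with library size alone (log2 fold change -0.25) and with a filter at 1 CPM (-0.23). The filter at 1 CPM removed Gadd45g, whose 8 to 32 counts limit its precision. Gadd45b, not called in any fit, turned below 0 with library size alone (-0.0553), a filter at 1 CPM (-0.03126), limma-voom (-0.003383), log2(FPKM + 1) with and without a filter (-0.0525 and -0.0525), log2(FPKM + 0.1) (-0.05531) and without LPS plus PE-CUR replicate 3 (-0.03825), and ranged from -0.03825 to 0.08685 with 1 library left out. Higher sestrin pathway genes, 7 in the main analysis, numbered 4, 4 and 3 with log2(FPKM + 1), log2(FPKM + 0.1) and log2(FPKM + 1) without a filter. Higher ATF4 targets, also 7, numbered 4 with library size alone and 4, 4 and 3 in those fits. Higher FoxO genes numbered 1, or 2 with median-ratio factors, no filter, DESeq2, the replicate block, or the most abundant genes removed, and 1 to 2 with 1 library left out. The causes were not tested. Same-numbered replicates did not deviate together (correlations of -0.163, -0.282 and -0.0473), none correlating best with its own number, and the replicate block gave 3708 higher and 3953 lower genes against 4004 and 4252, with 4 and 3 of the 10. The 4 ratios kept their direction with any library left out and with GENCODE exon bases as length, an alternative chosen after seeing the data.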

Other observations

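RNA of genes on 2 further lists, for ATF4 and for FoxO factors, was compared. The activity of these factors, and any effect of it on the 10 genes, was not tested. ATF4, the factor of the integrated stress response, also drives Sesn2 and Gadd45a. Its list holds Atf4 itself beside its targets. Of 23 tested genes of that list, 7 rose, 12 fell and 4 did not pass (82.6% called against 63.4% of all genes, median log2 fold change -0.15). Atf4, named after its values were seen, was among those that fell, from 543 to 479 CPM (log2 fold change of -0.18, adjusted p from edgeR = 0.0233). Ppp1r15a, once named GADD34, fell from 178 to 45.0 CPM, Ddit3, the death factor CHOP, from 161 to 47.9 CPM, Trib3, a pseudokinase, from 148 to 46.6 CPM, and Herpud1, of endoplasmic reticulum quality control, from 99.7 to 58.1 CPM. The mitochondrial serine enzyme gene Shmt2 and the serine synthesis gene Psat1 rose, Shmt2 from 175 to 416 CPM and Psat1 from 299 to 544 CPM. For FoxO factors and their targets, 16 were tested, with 1 higher, 12 lower and 3 not called (81.2% called, median -0.54). Among all tested genes 32.7% were called lower, and the median was -0.03. The lower genes include factors as well as targets. Foxo1, Foxo3 and Foxo4, named after their values were seen, had log2 fold changes of -0.62, -0.24 and -0.86. Bcl2l11, which encodes the death protein BIM, fell from 79.4 to 20.1 CPM, Tsc22d3, a glucocorticoid-induced gene, from 30.8 to 10.1 CPM, Txnip, which binds thioredoxin, from 942 to 562 CPM, and Ccng2, a cyclin of arrested cells, from 65.1 to 30.7 CPM. Cited2, a coactivator partner, rose from 501 to 1072 CPM.

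Among genes with a mean of at least 10 CPM, E2f2, Mrpl4 and Hspbp1 had the highest Pearson correlation of log2 CPM with Trp53 over the 6 libraries (0.9997, 0.9992 and 0.999). The 6 points fall into the 2 groups, and 1951 tested genes had a correlation above 0.95, so this describes the libraries only. The p53 half-site was found in the 250-base windows of Trp53, Mdm2, Gadd45a and the second of 2 windows of Sesn1, and in 7.13% of all windows. The antioxidant element was found in the windows of Trp53, Gadd45g and Sesn2 (10.2% of all), the E-box in those of Gadd45b and Gadd45g (6.02%), the AP-1 site in 1 of 2 windows of Mdm4 (6.75%), the FoxO site in that of Mdm2 (3.17%) and the CRE in none (1.55%). The kB motif, in 45.8% of all windows, was found for Trp53, Mdm2, Gadd45a, Gadd45g and Sesn1. In Trp53 and in Gadd45a a kB match covers the same letters as the p53 half-site (GGACTTGCCC and GGGCTAGCCC), so these are not separate finds.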
